A study of Mus musculus with 2 samples.

Results

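Voltage-gated calcium and sodium channels, hyperpolarization-activated (HCN) channels and transient receptor potential (TRP) channels were followed in the hippocampus of AtrxdE2+TMPyP4, AtrxdE2 and WT mice. The genes were chosen by symbol: every probe whose annotated symbol begins with Cacna, Cacnb, Cacng, or with Scn, Hcn, Trpc, Trpm or Trpv and a digit, was taken, and Trpc6 was left out. This gave 52 probes for 52 genes among the 23473 probes of the array, with 1 probe for each gene. Of these genes, 42 were measured, that is, exceeded the blank spots by 2 SD in both channels of both arrays, among 13630 measured named genes.

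The study measured hippocampal RNA on 2 two-colour oligonucleotide arrays. AtrxdE2+TMPyP4 mice carried the AtrxΔE2 allele of Atrx, a chromatin remodeller gene, and received the porphyrin TMPyP4, a ligand of G-quadruplex DNA, by intraperitoneal injection at 30 mg/kg with 2 weekly injections between postnatal days 30 and 90. AtrxdE2 mice carried the same allele, and no treatment is labelled for them. WT mice were wild type and untreated as far as the labels say. Each RNA was 1 pool of 5 mice, so every group has 1 measurement per array and the spread between mice was averaged within the pool. The mutant pool was labelled with Cy3 and the WT pool with Cy5 on both arrays, so that dye and genotype cannot be told apart. With no replicate arrays, no test was possible, and ratios are read against fold cut-offs and against the spread of all measured genes. Precision is limited by having 2 arrays.

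The pore-forming subunits of these families are cation channels built on a related plan, and neurons use them to shape firing, transmitter release and calcium entry. Voltage-gated calcium channels (Cav) combine a pore-forming α1 subunit with α2δ and β subunits that set its trafficking and gating, and several γ-like proteins serve as auxiliary subunits of AMPA receptors instead. Voltage-gated sodium channels (Nav) start and carry the action potential and bind small β subunits, HCN channels open on hyperpolarization and set resting excitability, and TRP channels respond to lipids, calcium, temperature, osmotic stretch or chemical ligands.

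The median signal of the probes, in scanner units above the blank spots, was 79 in AtrxdE2+TMPyP4 and 36 in the WT channel of that array, and 64.6 in AtrxdE2 and 42.2 in the WT channel of that array. By these medians the Cy3 channel was the brighter of both on each array, and the log2 ratios given below were taken after this difference between the dyes had been removed within each array. Of the hippocampal markers on the array, 6 of 7 for CA1, 7 of 9 for CA2 and CA3 and 9 of 11 for dentate granule neurons were measured. That is, they exceeded the blank spots in all 4 channels, as 79.5% of all probes did. Of 14 oligodendrocyte markers, 13 lay below 0 in AtrxdE2+TMPyP4 over WT, with a median of -0.29, and 14 in AtrxdE2 over WT, with a median of -0.49. Markers of meninges and fibroblasts had medians of 0.62 in AtrxdE2+TMPyP4 over WT, with 8 of 15 past 1.5-fold, and 0.35 in AtrxdE2 over WT, with 4 of 15. CA1 markers had a median of -0.28 in AtrxdE2+TMPyP4 over WT, with 5 of 6 below 0, and 0.06 in AtrxdE2 over WT. Markers of the choroid plexus, a secretory epithelium beside the hippocampus, differed between the pools. Their summed signal was 75893 in AtrxdE2+TMPyP4 against 2624 in WT on the same array, and 5450 in AtrxdE2 against 3085 in WT. Of 14 measured choroid plexus markers, 11 were at least 1.5-fold higher in AtrxdE2+TMPyP4 than in WT and 1 in AtrxdE2 than in WT. Aqp1 and Cldn2 were not above the blank spots in AtrxdE2, nor Cldn2 in WT beside it, nor Cldn2 and F5 in WT beside AtrxdE2+TMPyP4, where all 17 markers on the array were above them in the treated pool.

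Few of the 42 measured channel genes differed by 1.5-fold between the pools. In AtrxdE2+TMPyP4 over WT, 2 genes were at least 1.5-fold higher, the sodium channel gene Scn1a and the osmotically gated TRP channel gene Trpv4, which is 4.76% of the measured channel genes against 0.902% of all measured genes, and none was 1.5-fold lower, against 0.462%. In AtrxdE2 over WT, the sodium channel β subunit gene Scn3b was 1.5-fold lower, 2.38% against 0.66% of all measured genes, and none was 1.5-fold higher, against 0.44%. In AtrxdE2+TMPyP4 over AtrxdE2, computed as the difference of both ratios over WT, Scn3a, Trpv4 and Scn1a were higher, 7.14% against 2.1%, and the T-type calcium channel gene Cacna1h was lower, 2.38% against 1.14%. By these loess-normalized ratios, no channel gene reached 2-fold in any of the comparisons. Of all measured genes, 0.191%, 0.0293% and 0.315% did in the same order. Because the tissue was not separated into cells, fewer cells of a type and less RNA per cell cannot be told apart in any of these values.

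As a group the channel genes stayed near 0. The median log2 ratio was -0.012 in AtrxdE2+TMPyP4 over WT, against 0.010 over all measured genes, and -0.016 in AtrxdE2 over WT, against -0.003. The median of AtrxdE2+TMPyP4 over AtrxdE2 was -0.026, against 0.015. The SD across the channel genes was 0.24, 0.21 and 0.31 in these comparisons, against 0.20, 0.19 and 0.26 across all measured genes. In the first comparison 20 channel genes lay above 0 and 22 below, and in the second 18 lay above and 24 below. Centring each array on its median in place of loess moved the median of all measured genes to 0.18 in AtrxdE2+TMPyP4 over WT and to 0.07 in AtrxdE2 over WT, so signs under that setting are read relative to these shifts.

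**Figure D1:**
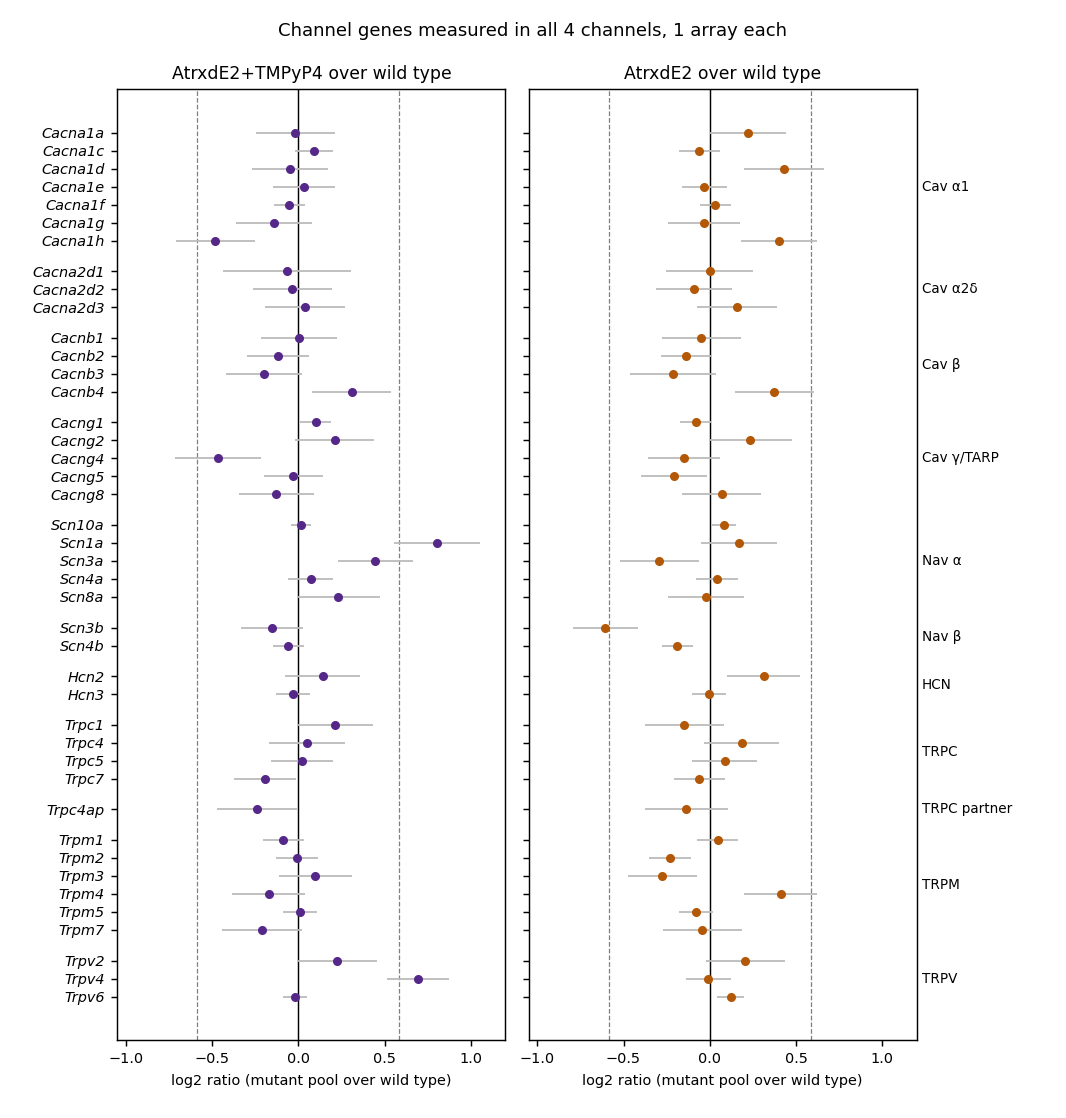
Log2 ratios of the 42 measured channel genes by class (vertical axis), for AtrxdE2+TMPyP4 over WT on the left and AtrxdE2 over WT on the right, each point being 1 gene on 1 array, the grey bars the SD of 500 genes of similar signal and the dashed lines 1.5-fold. Scn1a (0.81) and Trpv4 (0.69) lie beyond the line on the left and Scn3b (-0.60) on the right, and the other genes lie inside the lines.

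Ratios were spread more widely in the authors' deposited table, with an SD of 0.42 across the channel genes in AtrxdE2+TMPyP4 over WT and 0.40 in AtrxdE2 over WT. By the authors' deposited table, AtrxdE2+TMPyP4 over WT had 4 channel genes past 1.5-fold upward and 2 downward, against 5.22% and 3.06% of all measured genes. For AtrxdE2 over WT the authors' deposited table had 2 higher and 3 lower, against 4.11% and 5.17%. Between AtrxdE2+TMPyP4 and AtrxdE2, the authors' deposited table had 6 higher and 4 lower, against 10.2% and 6.65%. The counts of 4 and 2 are 9.52% and 4.76% of the 42 genes, those of 2 and 3 are 4.76% and 7.14%, and those of 6 and 4 are 14.3% and 9.52%. Some channel genes also passed 2-fold in that table. These were Trpv4 (1.46) and Scn1a (1.04) in AtrxdE2+TMPyP4 over WT, and Scn3b (-1.18) in AtrxdE2 over WT. Between the mutant pools they were Trpv4 (1.45) and Cacna1h (-1.11).

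Among the pore-forming α1 subunits of calcium channels, 7 of 9 genes were measured. Cacna1h, which encodes the low-voltage-activated T-type channel Cav3.2, had a signal of 287.9 in AtrxdE2+TMPyP4 and 199.3 in WT on that array, and of 455.9 in AtrxdE2 and 209.5 in WT on the other. The WT signals of Cacna1h were alike on both arrays, and the treated pool was dimmer than the untreated one. Its log2 ratio was -0.48 in AtrxdE2+TMPyP4 over WT and 0.40 in AtrxdE2 over WT, and the difference of -0.89 was the lowest of the measured channel genes. Among the 500 measured genes nearest to it in signal, the SD was 0.23, 0.22 and 0.30 for these values. The authors' deposited table gave -0.64 in AtrxdE2+TMPyP4 over WT, 0.47 in AtrxdE2 over WT and -1.11 between the mutant pools for Cacna1h. The Cy3 pools set directly against each other gave -0.87, and the WT channels gave 0.10. With median centring in place of loess, its ratio in AtrxdE2+TMPyP4 over WT was -0.14, still below 0.

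Cacna1d encodes the L-type channel Cav1.3, which opens at low voltages and serves pacemaking. Its signal was 302.9 in AtrxdE2+TMPyP4 and 145.5 in the WT channel beside it, and 298.5 in AtrxdE2 and 131.2 in the WT channel beside it. The log2 ratio was -0.05 in AtrxdE2+TMPyP4 over WT, 0.43 in AtrxdE2 over WT and -0.48 in AtrxdE2+TMPyP4 over AtrxdE2, all short of 1.5-fold (0.58 on the log2 scale). Of all measured channel genes, Cacna1d had the highest ratio of AtrxdE2 over WT. The authors' deposited table gave -0.11 in AtrxdE2+TMPyP4 over WT, 0.53 in AtrxdE2 over WT and -0.64 between the mutant pools, so that the third value passed 1.5-fold there. With median centring the ratio of AtrxdE2+TMPyP4 over WT stood at 0.27.

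Cacna1a, the gene of the P/Q-type channel that triggers transmitter release at most central synapses, had 338.7 in AtrxdE2+TMPyP4 and 157.1 in WT beside it, and 503.1 in AtrxdE2 and 268.7 in WT beside it. Both channels of the AtrxdE2+TMPyP4 array were thus dimmer than their counterparts, and the log2 ratios were -0.02 in AtrxdE2+TMPyP4 over WT and 0.22 in AtrxdE2 over WT, with a difference of -0.24. The authors' deposited table gave -0.06 in AtrxdE2+TMPyP4 over WT, 0.25 in AtrxdE2 over WT and -0.31 between the mutant pools. With the local background in place of the blank spots, all 3 signs turned, to 0.31 in AtrxdE2+TMPyP4 over WT, -0.19 in AtrxdE2 over WT and 0.50 between the mutant pools.

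The other measured α1 genes lay close to 0. Cacna1g, the gene of the T-type channel Cav3.1, had log2 ratios of -0.14 in AtrxdE2+TMPyP4 over WT and -0.03 in AtrxdE2 over WT. Cacna1c, the gene of the L-type channel Cav1.2, had 0.09 and -0.06, and a difference of 0.15 that was the highest of its class. For Cacna1c, with signals of 34.39 in AtrxdE2+TMPyP4, 12.23 in the WT channel beside it, 31.28 in AtrxdE2 and 23.10 in the WT channel beside it, the authors' deposited table gave 0.32 in AtrxdE2+TMPyP4 over WT, -0.21 in AtrxdE2 over WT and 0.53 between the mutant pools. Cacna1e, the gene of the R-type channel Cav2.3, stood at 0.03 in AtrxdE2+TMPyP4 over WT and -0.03 in AtrxdE2 over WT. Cacna1f, the gene of a retinal L-type channel, stood at -0.05 in AtrxdE2+TMPyP4 over WT and 0.03 in AtrxdE2 over WT.

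The class as a whole had a median of -0.05 in AtrxdE2+TMPyP4 over WT with 5 of 7 genes below 0, and of 0.03 in AtrxdE2 over WT with 4 of 7 above 0. With the local background, 3 of 7 were below 0 in the first and 3 of 7 above 0 in the second, so the class had no direction that held under both.

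The auxiliary α2δ subunits of calcium channels lay close to 0. All 3 α2δ genes on the array, which raise the number of channels at the membrane and bind gabapentin in the case of Cacna2d1 and Cacna2d2, were measured. Cacna2d1 had 979.5 in AtrxdE2+TMPyP4 and 451.2 in WT beside it, and 1173.2 in AtrxdE2 and 749.2 in WT beside it, with log2 ratios of -0.07 in AtrxdE2+TMPyP4 over WT and 0.00 in AtrxdE2 over WT and a difference of -0.07. The authors' deposited table gave -0.05 in AtrxdE2+TMPyP4 over WT, 0.00 in AtrxdE2 over WT and -0.05 between the mutant pools. Cacna2d2 had 374.1 in AtrxdE2+TMPyP4 and 175.3 in WT beside it, and 330.6 in AtrxdE2 and 229.1 in WT beside it, with log2 ratios of -0.03 in AtrxdE2+TMPyP4 over WT and -0.09 in AtrxdE2 over WT and a difference of 0.06. For Cacna2d2 the authors' deposited table gave -0.08 in AtrxdE2+TMPyP4 over WT, -0.12 in AtrxdE2 over WT and 0.04 between the mutant pools. All α2δ ratios lay within the SD found among the 500 measured genes of most similar signal. Cacna2d3 had 1107.8 in AtrxdE2+TMPyP4 and 470.3 in WT beside it, and 721.2 in AtrxdE2 and 407.0 in WT beside it. For Cacna2d3 the log2 ratios were 0.04 in AtrxdE2+TMPyP4 over WT and 0.16 in AtrxdE2 over WT, the difference was -0.12, and the authors' deposited table gave 0.07 in AtrxdE2+TMPyP4 over WT, 0.17 in AtrxdE2 over WT and -0.10 between the mutant pools.

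All 4 β subunit genes were measured. Cacnb4, the gene mutated in the lethargic mouse, had 2153.0 in AtrxdE2+TMPyP4 and 742.7 in WT beside it, and 1599.2 in AtrxdE2 and 779.7 in WT beside it. The WT values of Cacnb4 were close to each other and both mutant pools were higher after the dye difference was removed, with log2 ratios of 0.31 in AtrxdE2+TMPyP4 over WT and 0.37 in AtrxdE2 over WT. The authors' deposited table gave 0.36 in AtrxdE2+TMPyP4 over WT and 0.38 in AtrxdE2 over WT for Cacnb4, and -0.02 between the mutant pools. Cacnb3 had signals of 1186.5 in AtrxdE2+TMPyP4 and 599.2 in WT beside it, and 730.4 in AtrxdE2 and 546.1 in WT beside it. Its log2 ratios were -0.20 in AtrxdE2+TMPyP4 over WT and -0.21 in AtrxdE2 over WT, and with median centring they were 0.33 in AtrxdE2+TMPyP4 over WT, above the shift of all genes, and 0.04 in AtrxdE2 over WT, still below it. The authors' deposited table gave -0.19 in AtrxdE2+TMPyP4 over WT and -0.23 in AtrxdE2 over WT for Cacnb3, and 0.04 between the mutant pools. Cacnb1, the β subunit gene of skeletal muscle that the brain also uses, had 244.4 in AtrxdE2+TMPyP4 and 113.1 in WT beside it, and 202.2 in AtrxdE2 and 137.7 in WT beside it. The log2 ratios of Cacnb1 were 0.00 in AtrxdE2+TMPyP4 over WT and -0.05 in AtrxdE2 over WT with a difference of 0.05, and the authors' deposited table gave -0.06 in AtrxdE2+TMPyP4 over WT, -0.10 in AtrxdE2 over WT and 0.04 between the mutant pools. Cacnb2 stood at -0.12 in AtrxdE2+TMPyP4 over WT and -0.13 in AtrxdE2 over WT.

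The γ class held 5 measured genes, of which Cacng2 (stargazin), Cacng4, Cacng5 and Cacng8 encode transmembrane AMPA receptor regulatory proteins (TARPs) and Cacng1 the γ subunit of the skeletal muscle calcium channel. Cacng4 had 120.0 in AtrxdE2+TMPyP4 and 93.36 in WT beside it, and 140.9 in AtrxdE2 and 107.8 in WT beside it. It was the second lowest channel gene of AtrxdE2+TMPyP4 over WT, with a log2 ratio of -0.47, against -0.15 in AtrxdE2 over WT and a difference of -0.32. The authors' deposited table gave -0.81 in AtrxdE2+TMPyP4 over WT, -0.26 in AtrxdE2 over WT and -0.55 between the mutant pools, the first of which passed 1.5-fold. In mouse brain Cacng4 is also expressed by oligodendrocyte precursors, whose markers had a median of -0.16 in AtrxdE2+TMPyP4 over WT with 9 of 10 genes below 0, and of 0.00 in AtrxdE2 over WT with 5 of 10 below 0. The summed signal of these precursor markers was 7277 in AtrxdE2+TMPyP4 and 3728 in WT beside it, and 6500 in AtrxdE2 and 4420 in WT beside it, and all 10 were above the blank spots in each pool. Their part in the Cacng4 value was not tested.

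Cacng2 had 3579.0 in AtrxdE2+TMPyP4 and 1321.9 in WT beside it, and 2028.4 in AtrxdE2 and 1103.3 in WT beside it, with log2 ratios of 0.21 in AtrxdE2+TMPyP4 over WT and 0.23 in AtrxdE2 over WT and a difference of -0.02. The authors' deposited table gave 0.27 in AtrxdE2+TMPyP4 over WT, 0.23 in AtrxdE2 over WT and 0.04 between the mutant pools, and with the local background the ratio of AtrxdE2+TMPyP4 over WT was 0.00. Cacng5 had 113.2 in AtrxdE2+TMPyP4 and 55.46 in WT beside it, and 65.03 in AtrxdE2 and 57.07 in WT beside it. Its log2 ratios were -0.03 in AtrxdE2+TMPyP4 over WT and -0.21 in AtrxdE2 over WT with a difference of 0.18, and the authors' deposited table gave -0.14 in AtrxdE2+TMPyP4 over WT, -0.46 in AtrxdE2 over WT and 0.32 between the mutant pools. Cacng8 stood at -0.13 in AtrxdE2+TMPyP4 over WT and 0.07 in AtrxdE2 over WT. Cacng1, a dim probe with 22.67 in AtrxdE2+TMPyP4, 6.47 in WT beside it, 17.44 in AtrxdE2 and 14.06 in WT beside it, had log2 ratios of 0.10 in AtrxdE2+TMPyP4 over WT and -0.08 in AtrxdE2 over WT. The authors' deposited table gave 0.64 in AtrxdE2+TMPyP4 over WT and -0.34 in AtrxdE2 over WT for Cacng1, and 0.98 between AtrxdE2+TMPyP4 and AtrxdE2. Cacng1, Cacng4 and Cacng5 are neighbours on chromosome 11 with no annotated protein-coding gene between them, and they stood at 0.18, -0.32 and 0.18 in AtrxdE2+TMPyP4 over AtrxdE2.

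**Figure D2:**
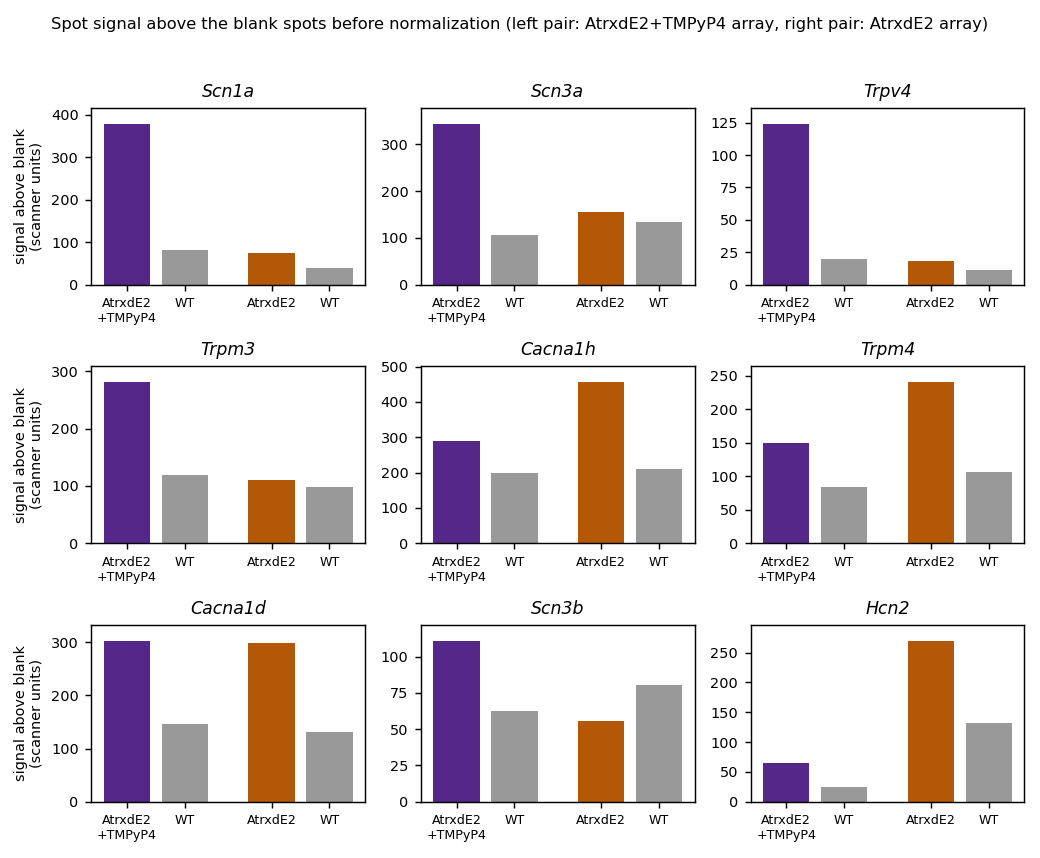
Signal above the blank spots before normalization (vertical axis, scanner units) of 9 channel genes, with AtrxdE2+TMPyP4 and its WT in the left pair and AtrxdE2 and its WT in the right pair of bars of each panel, each bar being 1 pool of 5 mice. Scn1a, Scn3a, Trpv4, Trpm3, Cacna1d and Scn3b are highest in the AtrxdE2+TMPyP4 pool. The channel of that pool also had the highest median signal over all probes. Scn3b is lower in AtrxdE2 than in its WT, and Hcn2 is dimmer in both channels of the AtrxdE2+TMPyP4 array.

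The highest ratio of AtrxdE2+TMPyP4 over WT among the measured channel genes belonged to a sodium channel α subunit gene, Scn1a, with Trpv4 second, and in the authors' deposited table Trpv4 was first and Scn1a second. Scn1a encodes Nav1.1, which carries the action potentials of parvalbumin interneurons in particular. Its signal was 379.0 in AtrxdE2+TMPyP4 against 81.97 in WT on that array, and 75.18 in AtrxdE2 against 39.00 in WT. The treated pool was the brightest of the 4 by a wide margin, and WT was also brighter on its array. The log2 ratio was 0.81 in AtrxdE2+TMPyP4 over WT, 0.17 in AtrxdE2 over WT and 0.63 in AtrxdE2+TMPyP4 over AtrxdE2, with an SD of 0.25, 0.22 and 0.31 among the 500 genes nearest in signal. The authors' deposited table gave 1.04 in AtrxdE2+TMPyP4 over WT, 0.29 in AtrxdE2 over WT and 0.75 between the mutant pools. Scn1a differed by 0.66 between the WT channels and by 1.47 between the Cy3 channels. With the local background, the difference between AtrxdE2+TMPyP4 and AtrxdE2 was 0.35, short of 1.5-fold, while the ratio of AtrxdE2+TMPyP4 over WT was 0.63.

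Pvalb, the gene of parvalbumin, had a log2 ratio of 0.87 in AtrxdE2+TMPyP4 over WT and -0.01 in AtrxdE2 over WT. Across all 14 measured interneuron markers, Pvalb included, the median was -0.05 in AtrxdE2+TMPyP4 over WT, with 5 genes above 0 and 9 below, and 0.02 in AtrxdE2 over WT, with 8 above and 6 below. Their summed signal was 37866 in AtrxdE2+TMPyP4 and 15911 in WT beside it, and 29154 in AtrxdE2 and 19602 in WT beside it, with every marker above the blank spots. The part of these markers in the Scn1a value was not tested.

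Scn3a encodes Nav1.3, a sodium channel prominent in the embryonic brain. It had 343.9 in AtrxdE2+TMPyP4 and 105.1 in WT beside it, and 155.2 in AtrxdE2 and 134.7 in WT beside it. The WT signals of Scn3a were similar and the mutant pools lay on opposite sides of them after normalization. The log2 ratio was 0.45 in AtrxdE2+TMPyP4 over WT and -0.29 in AtrxdE2 over WT, and the difference of 0.74 was the highest of the measured channel genes, with an SD of 0.22, 0.23 and 0.29 among the 500 genes nearest in signal. The authors' deposited table gave 0.54 in AtrxdE2+TMPyP4 over WT, -0.45 in AtrxdE2 over WT and 0.99 between the mutant pools. Set directly against each other, the Cy3 pools differed by 0.64 and the WT channels by -0.11.

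Scn8a, the gene of Nav1.6, which sits at the axon initial segment and nodes, had 965.4 in AtrxdE2+TMPyP4 and 355.4 in WT beside it, and 538.8 in AtrxdE2 and 350.0 in WT beside it. Its log2 ratio was 0.23 in AtrxdE2+TMPyP4 over WT, -0.02 in AtrxdE2 over WT and 0.26 between both mutant pools. The authors' deposited table gave 0.27 in AtrxdE2+TMPyP4 over WT, -0.03 in AtrxdE2 over WT and 0.30 between the mutant pools. Scn4a, the gene of the skeletal muscle channel Nav1.4, stood at 0.07 in AtrxdE2+TMPyP4 over WT and 0.04 in AtrxdE2 over WT. Scn10a, the gene of the sensory neuron channel Nav1.8, was near the detection limit, with 7.89 in AtrxdE2+TMPyP4, 2.25 in WT beside it, 17.38 in AtrxdE2 and 7.26 in WT beside it, and had log2 ratios of 0.02 in AtrxdE2+TMPyP4 over WT and 0.08 in AtrxdE2 over WT and a difference of -0.07. The authors' deposited table gave 0.64 in AtrxdE2+TMPyP4 over WT, 0.61 in AtrxdE2 over WT and 0.03 between the mutant pools for Scn10a.

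All 5 measured α subunits thus stood above 0 in AtrxdE2+TMPyP4 over WT, with a median of 0.23, except that with median centring 3 of 5 did. In AtrxdE2 over WT 3 of 5 did, with a median of 0.04, and the median of AtrxdE2+TMPyP4 over AtrxdE2 was 0.26. Scn3a and Scn1a lie on chromosome 2 with the protein-coding genes Scn2a, Csrnp3, Galnt3 and Ttc21b between them.

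The sodium channel β subunits, single-pass proteins that tune gating and adhere to other cells, both lay below 0 in AtrxdE2 over WT. Scn3b had 110.9 in AtrxdE2+TMPyP4 and 62.70 in WT beside it, and 55.48 in AtrxdE2 and 80.07 in WT beside it, and AtrxdE2 was the lowest of the 4 although Cy3 was the brighter channel by the array median. Its log2 ratio was -0.15 in AtrxdE2+TMPyP4 over WT, -0.60 in AtrxdE2 over WT and 0.45 in AtrxdE2+TMPyP4 over AtrxdE2. The SD among the 500 genes nearest to Scn3b in signal was 0.18, 0.19 and 0.23. The authors' deposited table gave -0.35 in AtrxdE2+TMPyP4 over WT, -1.18 in AtrxdE2 over WT and 0.83 between the mutant pools. With the local background, the ratio of AtrxdE2 over WT was -0.53 and with median centring -0.56, both short of 1.5-fold.

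Scn4b, the gene of β4, which is abundant in striatum, had 21.37 in AtrxdE2+TMPyP4 and 11.53 in WT beside it, and 15.71 in AtrxdE2 and 17.49 in WT beside it. Its log2 ratio was -0.06 in AtrxdE2+TMPyP4 over WT, -0.19 in AtrxdE2 over WT and 0.13 between the mutant pools. The authors' deposited table gave -0.28 in AtrxdE2+TMPyP4 over WT, -0.81 in AtrxdE2 over WT and 0.53 between the mutant pools. Striatal markers had a median of -0.47 in AtrxdE2+TMPyP4 over WT, with 8 of 10 below 0, and -0.08 in AtrxdE2 over WT, with 7 of 10 below 0. Their summed signal was 5625 in AtrxdE2+TMPyP4 and 3678 in WT beside it, and 6414 in AtrxdE2 and 6680 in WT beside it, with Isl1 not above the blank spots in AtrxdE2+TMPyP4 and Six3 not in AtrxdE2. Their part in the Scn4b value was not tested.

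**Figure D3:**
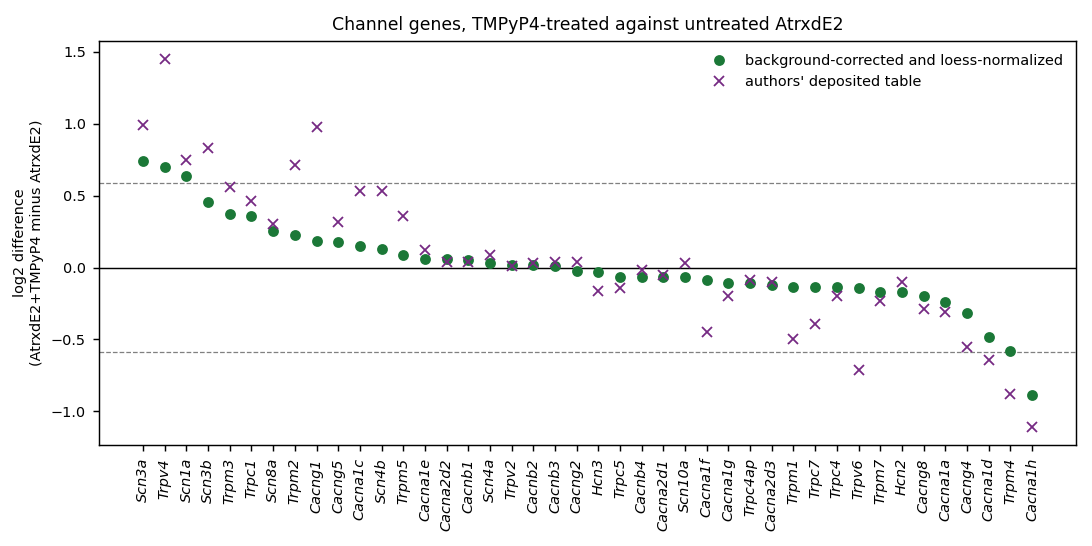
Log2 difference of AtrxdE2+TMPyP4 minus AtrxdE2 (vertical axis) for each of the 42 measured channel genes, with circles for the normalized spots, crosses for the authors' deposited table and dashed lines at 1.5-fold. Scn3a, Trpv4 and Scn1a stand at the high end (0.74, 0.70 and 0.63) and Cacna1h and Trpm4 at the low end (-0.89 and -0.58).

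Of the HCN channels, Hcn2 and Hcn3 were measured in all 4 channels. Hcn2, a main carrier of the hyperpolarization-activated current in the brain, had 65.60 in AtrxdE2+TMPyP4 and 24.03 in WT beside it, and 270.0 in AtrxdE2 and 131.9 in WT beside it. Both channels of the AtrxdE2+TMPyP4 array were several times dimmer than their counterparts, so the log2 ratios within the arrays were 0.14 in AtrxdE2+TMPyP4 over WT and 0.31 in AtrxdE2 over WT, with a difference of -0.17. The authors' deposited table gave 0.28 in AtrxdE2+TMPyP4 over WT, 0.38 in AtrxdE2 over WT and -0.10 between the mutant pools. After normalization between arrays, Hcn2 differed between the AtrxdE2+TMPyP4 and AtrxdE2 arrays by -1.60 in the mutant channel and by -1.15 in the WT channel. The 20 measured spots within 2 positions of the Hcn2 spot differed between the WT channels by a median of 0.06, with a range from -0.90 to 0.69. Hcn3 had 26.29 in AtrxdE2+TMPyP4 and 12.96 in WT beside it, and 21.93 in AtrxdE2 and 13.89 in WT beside it, with log2 ratios of -0.03 in AtrxdE2+TMPyP4 over WT and 0.00 in AtrxdE2 over WT and a difference of -0.03. For Hcn3 the authors' deposited table gave -0.15 in AtrxdE2+TMPyP4 over WT, 0.01 in AtrxdE2 over WT and -0.16 between the mutant pools.

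Among the 42 measured channel genes, Hcn2 and Scn1a were the 2 that differed at least 1.5-fold between the WT channels of the arrays, where 4.61% of all measured genes did. Hcn2 also passed 2-fold, against 0.558%. Between the Cy3 channels of the arrays, 8 channel genes passed 1.5-fold, against 12.8% of all measured genes: Scn1a, Trpv4, Trpm3 and Scn3a were higher in AtrxdE2+TMPyP4, and Trpm4, Cacna1a, Cacna1h and Hcn2 were lower. Scn1a, Trpv4 and Hcn2 passed 2-fold there, against 2.68%. The SD of the WT difference was 0.29 across the channel genes and 0.27 across all measured genes, and that of the Cy3 difference was 0.53 and 0.40. Whether 1 WT pool was used for both arrays is not given in the sources used here.

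**Figure D4:**
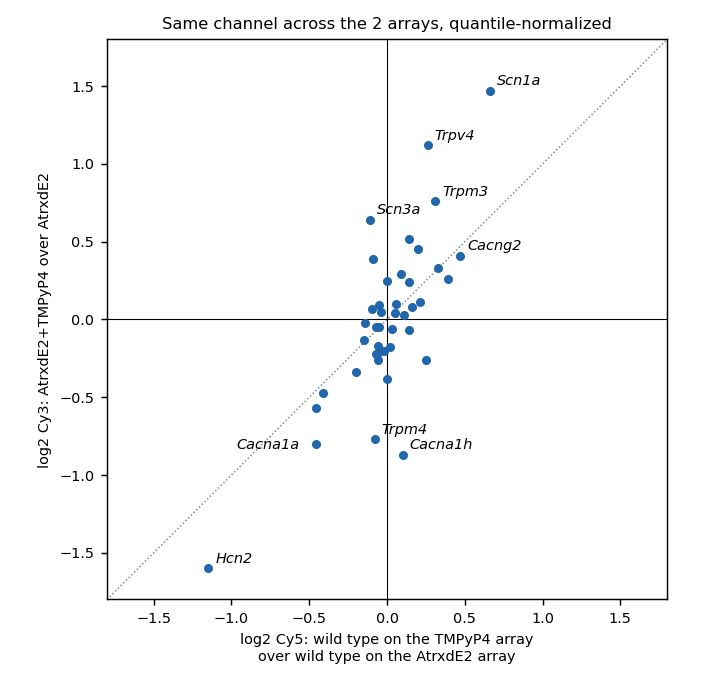
Log2 difference between the arrays in the Cy3 channel (AtrxdE2+TMPyP4 over AtrxdE2, vertical axis) against that in the WT channel (horizontal axis) after quantile normalization, for the 42 measured channel genes, with a dotted line where both are equal. Hcn2 (-1.60 and -1.15) and Scn1a (1.47 and 0.66) are displaced in both channels, while Trpv4 (1.12 and 0.26) and Cacna1h (-0.87 and 0.10) are displaced mainly in the mutant channel.

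Canonical TRP channels (TRPC), which open downstream of phospholipase C, were measured for all 4 genes. Trpc1 had 352.6 in AtrxdE2+TMPyP4 and 134.2 in WT beside it, and 178.2 in AtrxdE2 and 134.0 in WT beside it. The WT signals of Trpc1 were nearly identical and the treated pool was the brightest. Its log2 ratio was 0.21 in AtrxdE2+TMPyP4 over WT, -0.15 in AtrxdE2 over WT and 0.36 in AtrxdE2+TMPyP4 over AtrxdE2, and the third of these was 0.01 with the local background. The authors' deposited table gave 0.22 in AtrxdE2+TMPyP4 over WT, -0.24 in AtrxdE2 over WT and 0.46 between the mutant pools. Trpc4, whose channel is strongly expressed in limbic neurons, had 277.5 in AtrxdE2+TMPyP4 and 122.5 in WT beside it, and 271.2 in AtrxdE2 and 148.9 in WT beside it. Its log2 ratios were 0.05 in AtrxdE2+TMPyP4 over WT and 0.18 in AtrxdE2 over WT with a difference of -0.14, and the authors' deposited table gave 0.01 in AtrxdE2+TMPyP4 over WT, 0.21 in AtrxdE2 over WT and -0.20 between the mutant pools. The related Trpc5 stood at 0.02 in AtrxdE2+TMPyP4 over WT and 0.09 in AtrxdE2 over WT. Trpc7 stood at -0.20 in AtrxdE2+TMPyP4 over WT and -0.06 in AtrxdE2 over WT, with a difference of -0.13 and signals of 43.99 in AtrxdE2+TMPyP4, 29.28 in WT beside it, 51.77 in AtrxdE2 and 37.57 in WT beside it. The authors' deposited table gave -0.58 in AtrxdE2+TMPyP4 over WT, -0.19 in AtrxdE2 over WT and -0.39 between the mutant pools for Trpc7. Trpc4ap, which encodes a TRPC4-associated protein and no channel, had 897.0 in AtrxdE2+TMPyP4 and 471.4 in WT beside it, and 911.3 in AtrxdE2 and 641.6 in WT beside it. Its log2 ratios were -0.24 in AtrxdE2+TMPyP4 over WT and -0.13 in AtrxdE2 over WT, and with median centring they were 0.27 in AtrxdE2+TMPyP4 over WT and 0.13 in AtrxdE2 over WT, both above the shift of all genes. Its difference between the mutant pools was -0.11, and the authors' deposited table gave -0.24 in AtrxdE2+TMPyP4 over WT, -0.15 in AtrxdE2 over WT and -0.09 between the mutant pools.

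Melastatin TRP channels (TRPM) were measured for 6 of 8 genes. Trpm4 encodes a calcium-activated channel for monovalent cations. It had 149.3 in AtrxdE2+TMPyP4 and 84.27 in WT beside it, and 240.1 in AtrxdE2 and 106.1 in WT beside it. The log2 ratio was -0.17 in AtrxdE2+TMPyP4 over WT and 0.41 in AtrxdE2 over WT, and the difference of -0.58 fell just short of the 1.5-fold line. The authors' deposited table gave -0.35 in AtrxdE2+TMPyP4 over WT, 0.53 in AtrxdE2 over WT and -0.88 between the mutant pools for Trpm4. With median centring its ratio of AtrxdE2+TMPyP4 over WT was 0.00.

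Trpm3 encodes a heat- and steroid-gated channel that is also made in choroid plexus. It had 280.9 in AtrxdE2+TMPyP4 and 118.4 in WT beside it, and 109.7 in AtrxdE2 and 97.54 in WT beside it. The log2 ratio was 0.10 in AtrxdE2+TMPyP4 over WT, -0.28 in AtrxdE2 over WT and 0.37 in AtrxdE2+TMPyP4 over AtrxdE2, and the summed choroid plexus signal given above was highest in the same pool. The part of choroid plexus RNA in the Trpm3 value was not tested. The authors' deposited table gave 0.08 in AtrxdE2+TMPyP4 over WT, -0.48 in AtrxdE2 over WT and 0.56 between the mutant pools.

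Trpm2, the gene of a channel gated by ADP-ribose under oxidative stress, had 43.25 in AtrxdE2+TMPyP4 and 20.27 in WT beside it, and 22.86 in AtrxdE2 and 25.19 in WT beside it. Its log2 ratio was -0.01 in AtrxdE2+TMPyP4 over WT, -0.23 in AtrxdE2 over WT and 0.22 between the mutant pools. The authors' deposited table gave -0.08 in AtrxdE2+TMPyP4 over WT, -0.79 in AtrxdE2 over WT and 0.71 between the mutant pools, and the last of these passed 1.5-fold upward while the value of AtrxdE2 over WT passed it downward. Trpm7, the gene of a channel fused to a kinase, had 319.7 in AtrxdE2+TMPyP4 and 175.2 in WT beside it, and 293.2 in AtrxdE2 and 196.0 in WT beside it. Trpm7 stood at -0.21 in AtrxdE2+TMPyP4 over WT and -0.04 in AtrxdE2 over WT with a difference of -0.17, and with median centring the ratio was 0.13 in AtrxdE2+TMPyP4 over WT, still below the shift of all genes, and 0.15 in AtrxdE2 over WT, above it. The authors' deposited table gave -0.30 in AtrxdE2+TMPyP4 over WT, -0.07 in AtrxdE2 over WT and -0.23 between the mutant pools. Trpm1, the channel gene of retinal ON bipolar cells, and Trpm5, that of taste cells, were dim and lay between -0.09 and 0.05 over WT.

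Vanilloid TRP channels (TRPV) were measured for 3 of 6 genes. Trpv4, whose channel opens on hypotonic swelling and warmth and is known in choroid plexus epithelium, had a signal of 124.3 in AtrxdE2+TMPyP4 against 20.10 in WT on that array, and of 18.18 in AtrxdE2 against 11.51 in WT. The treated pool stood far above the other 3 measurements. The log2 ratio was 0.69 in AtrxdE2+TMPyP4 over WT, -0.01 in AtrxdE2 over WT and 0.70 in AtrxdE2+TMPyP4 over AtrxdE2, with an SD of 0.18, 0.13 and 0.21 among the 500 genes nearest in signal. The authors' deposited table gave 1.46 in AtrxdE2+TMPyP4 over WT, 0.01 in AtrxdE2 over WT and 1.45 between the mutant pools. Read against the local background around each spot in place of the blank spots, the ratios of Trpv4 were -0.19 in AtrxdE2+TMPyP4 over WT and -0.07 in AtrxdE2+TMPyP4 over AtrxdE2. Its spot read 228.9 in AtrxdE2+TMPyP4 with a local background of 215.5, against 59.6 with 53.0 in WT, and 92.4 with 86.5 in AtrxdE2 against 38.3 with 29.1 in WT. Across all spots the local background and the spot's own intensity rose together, with a log-scale correlation between 0.901 and 0.985 over spots in the 4 channels. The reason for this was not tested, and the correlation does not tell which background is the better reference for Trpv4. The higher Trpv4 in the treated pool holds against the blank spots and not against the local background. The authors' deposited table is also set on the blank spots, so its value for Trpv4 is no separate check.

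Choroid plexus markers were high in the same pool as Trpv4. Their median log2 ratio was 1.35 in AtrxdE2+TMPyP4 over WT, 0.07 in AtrxdE2 over WT and 1.31 in AtrxdE2+TMPyP4 over AtrxdE2. Without Ttr, the most strongly changed of them, the summed signal was 15102 in AtrxdE2+TMPyP4 and 2404 in WT beside it, and 5097 in AtrxdE2 and 3040 in WT beside it. Their part in the Trpv4 value was not tested.

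Trpv2 had 403.5 in AtrxdE2+TMPyP4 and 151.6 in WT beside it, and 461.4 in AtrxdE2 and 249.7 in WT beside it. Its log2 ratios over WT were similar, 0.22 in AtrxdE2+TMPyP4 and 0.21 in AtrxdE2. For Trpv2 the authors' deposited table gave 0.24 in AtrxdE2+TMPyP4 over WT, 0.23 in AtrxdE2 over WT and 0.01 between the mutant pools. Trpv6, the gene of a calcium-selective epithelial channel, was dim, with 8.71 in AtrxdE2+TMPyP4, 3.67 in WT beside it, 19.62 in AtrxdE2 and 7.25 in WT beside it. Its log2 ratios were -0.02 in AtrxdE2+TMPyP4 over WT and 0.12 in AtrxdE2 over WT with a difference of -0.14, and the authors' deposited table gave 0.08 in AtrxdE2+TMPyP4 over WT, 0.79 in AtrxdE2 over WT and -0.71 between the mutant pools.

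The remaining 10 channel genes did not exceed the blank spots in all 4 channels. Cacna1b (the N-type channel), Hcn4, the sensory sodium channel gene Scn11a and the cold and menthol channel gene Trpm8 were above them in both channels of the AtrxdE2 array and in neither of the AtrxdE2+TMPyP4 array. Cacna1s, the α1 subunit of skeletal muscle, and Trpv5 were above them only in the WT channel of the AtrxdE2 array, and Trpm6 only in AtrxdE2. The capsaicin receptor gene Trpv1 was above them in all but the WT channel of the AtrxdE2+TMPyP4 array, Scn7a in all but AtrxdE2, and Trpv3 in none. Bounds were set for those seen in 1 channel of an array. The brighter signal was taken over the detection limit of the dimmer one, or over the dimmer one's own reading where that was higher. Values that rest on such a reading are not strict lower bounds. Trpm6 came out 1.05-fold higher in AtrxdE2 than in WT, the same as its plain ratio. Likewise, Trpv1 came out 1.03-fold higher in AtrxdE2+TMPyP4 than in WT. Both log2 ratios lay within the SD of genes of similar signal (0.07 and 0.06). They turned with median centring, to -0.06 for Trpm6 and -0.29 for Trpv1. Scn7a was at least 1.01-fold lower in AtrxdE2 than in WT, with a log2 ratio of -0.05 that also lay within that SD (0.07). The bound for Cacna1s rounded to 1-fold, and none could be set for Trpv5. In all, 44 of the 52 genes were above the blank spots in AtrxdE2+TMPyP4 and 43 in WT on that array, and 48 in AtrxdE2 and 50 in WT on the other. Of all probes, 83.3%, 83.6%, 86.5% and 89.9% were above them in the same order, so fewer probes of any kind were seen on the AtrxdE2+TMPyP4 array. The share measured in all 4 channels was 80.8%, against 79.5% of all probes.

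Partners of these channels were counted in lists chosen by function. Of 23 measured regulators of calcium channels and partners at the active zone, 2 were at least 1.5-fold higher in AtrxdE2+TMPyP4 over WT, beside 0.902% of all measured genes: Cabp1, a calcium sensor that binds Cav1 and Cav2 channels, at 0.61, and Snap25, a SNARE protein of vesicle fusion, at 0.59. In AtrxdE2 over WT Snap25 was the 1 gene past 1.5-fold, at -0.67, beside 0.66% of all measured genes that were lower. Its difference of 1.25 was the highest of the list and the 1 past 1.5-fold, beside 2.1% of all measured genes that were higher. The other extremes were Stac2 at 0.54 in AtrxdE2 over WT, Rem2 at -0.41 in AtrxdE2+TMPyP4 over WT and Bzrap1 (now Tspoap1) at -0.40 in the difference. The authors' deposited table had 2 of these genes higher and 4 lower in AtrxdE2+TMPyP4 over WT, beside 5.22% and 3.06% of all measured genes, and 0 higher and 3 lower in AtrxdE2 over WT, beside 4.11% and 5.17%. Of 16 measured proteins that anchor or modulate sodium channels, none passed 1.5-fold over WT, and Ank2, an ankyrin, stood at -0.20 in AtrxdE2+TMPyP4 over WT, 0.47 in AtrxdE2 over WT and -0.67 in AtrxdE2+TMPyP4 over AtrxdE2. The proteins of the FGF-like genes Fgf12 and Fgf14 bind the tail of Nav channels. Fgf12 stood at 0.43 in AtrxdE2+TMPyP4 over WT and Fgf14 at 0.50 in the difference. Spnb2 (now Sptbn1) stood at -0.32 in AtrxdE2+TMPyP4 over WT and Cntnap1 at -0.22 in AtrxdE2 over WT. The authors' deposited table differed here. It had 2 higher and 1 lower in AtrxdE2+TMPyP4 over WT, beside 5.22% and 3.06% of all measured genes. In AtrxdE2 over WT it had 1 higher and 1 lower, beside 4.11% and 5.17%. For Ank2 the authors' deposited table had -1.02 in AtrxdE2+TMPyP4 over WT, 1.42 in AtrxdE2 over WT and -2.44 between the mutant pools. For Ank1, another ankyrin gene, the authors' deposited table had 1.33 in AtrxdE2+TMPyP4 over WT and -0.75 in AtrxdE2 over WT. The median of the calcium channel list was 0.04 in AtrxdE2+TMPyP4 over WT and -0.04 in AtrxdE2 over WT, and that of the sodium channel list was 0.00 in AtrxdE2+TMPyP4 over WT and 0.01 in AtrxdE2 over WT. Among 6 measured HCN partners, Kcne2, a β subunit that is also a choroid plexus marker, stood at 1.38 in AtrxdE2+TMPyP4 over WT and -0.15 in AtrxdE2 over WT. The scaffold gene Flna stood at -0.29 in AtrxdE2+TMPyP4 over WT, 0.35 in AtrxdE2 over WT and -0.64 between the mutant pools, and Vapa at -0.26 in AtrxdE2 over WT. Kcne2 and Flna were the 2 HCN partners past 1.5-fold between the mutant pools, where Kcne2 stood at 1.53. Of all measured genes, 2.1% were higher and 1.14% lower in that comparison.

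TMPyP4 binds G-quadruplexes, stacked structures of guanine-rich DNA, so the promoters of the channel genes were searched for the sequence pattern of 4 runs of GGG with 1 to 7 bases between runs, on either strand, from 250 bases before to 50 bases after each start. RefSeq promoters (build GRCm38.p6) were at hand for 43 of the 52 genes. The pattern was found in 16 of these, 37.2%, against 5500 of 27025 genes, 20.4%. Of the genes with large differences, Trpv4, Scn1a and Cacna1d had an entry, and their promoters are shown 5′ to 3′ on the gene's strand with the pattern in capitals, because one holds it, one lacks it and the last has a start of each kind. Scn3a, Cacna1h, Trpm4, Scn3b and Cacng4 are named only. The windows are chr5:114658372-114658671 for Trpv4, chr2:66440788-66441087 for Scn1a, and chr14:30353437-30353736 and chr14:30491107-30491406 for Cacna1d, all on the minus strand.
Trpv4: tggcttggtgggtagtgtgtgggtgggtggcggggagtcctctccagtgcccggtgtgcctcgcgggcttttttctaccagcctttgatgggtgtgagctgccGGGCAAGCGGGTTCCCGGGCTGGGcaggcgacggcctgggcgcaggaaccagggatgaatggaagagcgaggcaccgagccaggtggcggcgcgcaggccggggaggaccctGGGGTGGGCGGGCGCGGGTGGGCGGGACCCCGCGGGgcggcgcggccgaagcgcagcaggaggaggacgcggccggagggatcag
Scn1a: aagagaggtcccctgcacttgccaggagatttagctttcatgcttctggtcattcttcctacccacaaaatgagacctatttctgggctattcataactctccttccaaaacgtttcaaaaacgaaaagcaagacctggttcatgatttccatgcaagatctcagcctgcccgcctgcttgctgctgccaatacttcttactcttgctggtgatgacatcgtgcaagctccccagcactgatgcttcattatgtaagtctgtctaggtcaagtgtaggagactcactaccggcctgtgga
Cacna1d, start with the pattern: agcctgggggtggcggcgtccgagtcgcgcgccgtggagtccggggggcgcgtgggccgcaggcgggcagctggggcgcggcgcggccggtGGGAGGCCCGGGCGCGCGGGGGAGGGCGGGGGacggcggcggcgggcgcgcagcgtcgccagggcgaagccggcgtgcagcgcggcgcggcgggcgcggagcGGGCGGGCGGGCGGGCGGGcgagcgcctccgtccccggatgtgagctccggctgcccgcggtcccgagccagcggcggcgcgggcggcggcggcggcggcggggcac
Cacna1d, start without it: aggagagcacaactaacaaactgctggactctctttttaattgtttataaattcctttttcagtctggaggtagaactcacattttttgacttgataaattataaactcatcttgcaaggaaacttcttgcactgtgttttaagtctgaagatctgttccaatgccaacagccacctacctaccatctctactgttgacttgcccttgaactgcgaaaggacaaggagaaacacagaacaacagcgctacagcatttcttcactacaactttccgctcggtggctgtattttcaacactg

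Across the measured channel genes, the 13 with the pattern had a median log2 ratio of 0.04 in AtrxdE2+TMPyP4 over WT, against 0.00 in the 20 with a promoter entry without it. In AtrxdE2 over WT the medians were -0.01 and 0.00, and in AtrxdE2+TMPyP4 over AtrxdE2 they were 0.03 and -0.04. These are descriptions of letters in 1 window per start, and a match is no evidence that the structure forms there.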

How the data were processed

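Each array compared a Cy3-labelled mutant pool with a Cy5-labelled WT pool of hippocampal RNA. Per the file headers, the scanner tables give the median intensity and local background of every spot in both dyes. Per the labels, the value table is on the log2 scale and normalized, with the mutant pool on top. Set against the scanner values, the authors' log2 values equalled the log ratio above the mean of the blank spots minus 0.65 (AtrxdE2) and 1.17 (AtrxdE2+TMPyP4), which settles scale, direction and centring. The column medians were 0.0. Software of the authors is not given in the sources used here.

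Intensities were background-corrected with normexp on the trimmed mean of the blank spots (2736 per array, offset 50) and normalized by loess within each array (limma 3.58.1, R 4.3.3), which understates the ratios of dim probes. The signals in the text are intensities above the blank mean, before loess. A probe was measured where it exceeded the blank mean by 2 SD in all 4 channels. The annotation named 1 gene for 16631 probes and none for 6842. AtrxdE2+TMPyP4 over AtrxdE2 is the difference of both ratios over WT, so both ratios enter it. No test was made, since each group has 1 pool of 5 mice per array. The normalization was tested by multiplying the Cy3 signal of some measured probes on these arrays by known folds. The later steps were not tested in this way.

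The members, gene lists and processing were chosen with earlier results of these data known. Members given with full values were the 6 highest and 6 lowest of each comparison and the extremes of each class, and for the partner lists the extremes. Alternatives were local background, plain subtraction, an offset of 10, median centring, the deposited table, signal filters, the Cy3 channels alone and a 2-fold cut-off.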

Additional observations from a re-analysis of the deposited data

Results flagged for a closer look

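By the loess-normalized ratios, Cacna1h and Scn3a were the 2 of 42 measured channel genes whose log2 ratios over WT had opposite signs on the 2 arrays, each larger than the SD of 500 genes of like signal. Cacna1h stood at -0.48 in AtrxdE2+TMPyP4 over WT and at 0.40 in AtrxdE2 over WT. Scn3a stood at 0.45 in AtrxdE2+TMPyP4 over WT and at -0.29 in AtrxdE2 over WT. With median centring, which shifted all genes upward, the signs held. Cacna1h then stood at -0.14 in AtrxdE2+TMPyP4 over WT and Scn3a at -0.16 in AtrxdE2 over WT, both smaller than those SDs (0.23). With the local background Cacna1h stood at -0.24 in AtrxdE2+TMPyP4 over WT. Its spot in that pool read 392.4 with a local background of 229.5, against 530.1 with 97.1 in AtrxdE2. With 1 array for each ratio, the difference was not tested for either gene. The WT channels differed little between the arrays, by 0.10 for Cacna1h and by -0.11 for Scn3a.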

How the results depend on the processing

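No paired analysis was possible because each mutant pool was measured once, beyond the WT channel that each ratio already uses, and for the same reason no replicate could be left out. In AtrxdE2+TMPyP4 over WT, where 2 genes were higher and 0 lower by 1.5-fold, the higher count was 1 with the local background, 6 with median centring, 4 in the authors' deposited table, 1 among probes above the median signal and 0 at 2-fold. The lower count there was 2 with plain subtraction, 1 with an offset of 10 and 2 in the authors' deposited table, and the median of -0.012 stood at 0.115 with median centring. In AtrxdE2 over WT, with 0 higher and 1 lower, the higher count was 1 with plain subtraction, 3 with median centring and 2 in the authors' deposited table, and the lower count 0 with the local background, 3 with plain subtraction, 0 with median centring, 3 in the authors' deposited table and 0 at 2-fold. In AtrxdE2+TMPyP4 over AtrxdE2, with 3 higher and 1 lower, the higher count was 2 with the local background, 6 with plain subtraction, 6 in the authors' deposited table and 0 at 2-fold. Scn3b was also past 1.5-fold with an offset of 10 (0.67), and Trpm3 with the Cy3 channels alone (0.76). The lower count there was 2 with the local background, 4 with plain subtraction, 3 with an offset of 10, 4 in the authors' deposited table, 4 with the Cy3 channels alone and 0 at 2-fold. Trpv4 reversed with the local background, to -0.19 in AtrxdE2+TMPyP4 over WT and -0.07 in AtrxdE2+TMPyP4 over AtrxdE2, where its local background nearly equalled its spot. The cause was not tested for Trpv4 or for the other values. Among all measured genes past 1.5-fold, the share that was higher was 66.1%, 40% and 64.9% in the 3 comparisons in the order given, against 99.4%, 94.7% and 91.4% with median centring and 90.5%, 35.3% and 83.5% with the local background. For the 23 channel genes followed under the alternatives that can change a single ratio, 311 values moved by less than the SD between the WT channels (0.27). A further 55 moved by more and 2 were classed as reversed. Signs also changed among values not classed as reversed, as for Cacna1a in all 3 comparisons with the local background. The signal filters and the choice of probe cannot change the ratio of a gene with 1 probe and are not counted.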

Other observations

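Cation channels related to these families had medians close to 0. Of 23 measured genes, which include acid-sensing, polycystin and leak channels, none passed 1.5-fold over WT in either mutant pool, and the medians were 0.00 in AtrxdE2+TMPyP4 over WT and 0.01 in AtrxdE2 over WT. Of all measured genes, 0.902% were higher and 0.462% lower in AtrxdE2+TMPyP4 over WT, and 0.44% and 0.66% in AtrxdE2 over WT. The authors' deposited table had 0 higher and 2 lower in AtrxdE2+TMPyP4 over WT, and 4 higher and 1 lower in AtrxdE2 over WT, from Pkd2l2 at 1.32 to Tpcn1 at -1.07. Of all measured genes in that table, 5.22% were higher and 3.06% lower in the first, and 4.11% and 5.17% in the second. Pkd1, which encodes polycystin 1, was lower in AtrxdE2+TMPyP4 than in AtrxdE2, at -0.62. The other extremes were Mcoln1 at -0.33 and C030018G13Rik (now Unc80) at 0.38 in AtrxdE2 over WT. Among 26 measured genes of store-operated calcium entry and release from the endoplasmic reticulum, Atp2a2, which encodes the calcium pump SERCA2, was the 1 past 1.5-fold in any of the 3 comparisons, at -0.65 in AtrxdE2 over WT. There 0.66% of all measured genes were 1.5-fold lower. The phospholipase gene Plcb4 stood at 0.53 and the ryanodine receptor partner gene Fkbp1a at -0.47 in AtrxdE2+TMPyP4 over WT. In AtrxdE2+TMPyP4 over AtrxdE2, Atp2a2 stood at 0.57 and the ryanodine receptor gene Ryr1 at -0.53. The authors' deposited table had 1 higher (Plcb4, 0.61) and 1 lower (Ryr1, -0.95) in AtrxdE2+TMPyP4 over WT, 0 higher and 1 lower in AtrxdE2 over WT, and 3 higher and 1 lower (Ryr1, -1.35) between the mutant pools. The shares of all measured genes over WT in that table are given above. Between the mutant pools 10.2% were higher and 6.65% lower.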
